A study of Mus musculus with 6 samples.

Results

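The nuclei described here are GABAergic nuclei of the mouse septal area that carry RNA of at least 4 of 7 companion genes. The 7 are the calcitonin receptor gene Calcr, the estrogen receptor alpha gene Esr1, the prolactin receptor gene Prlr, Otx2os1, Gpc3, Reln and Zfp804b. The nuclei were selected on their counts in 2 steps. A barcode entered the lateral septum gate with at least 500 detected genes, at most 5% mitochondrial counts, at least 2 unique molecular identifiers (UMIs, each standing for 1 captured RNA molecule) of Gad1 plus Gad2, at least 6 of Trpc4 plus Dgkg and 0 of Slc17a6. A gate nucleus was a member when at least 4 of the 7 companion genes had at least 1 UMI. The rule found 2521 members among 13740 gate nuclei (18.3%), 54605 nuclei past the filters (4.62%) and 55537 barcodes in all. The 11219 gate nuclei with at most 3 of the 7 genes are called other gate nuclei below.

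The study profiled wild type mouse septal area by droplet RNA sequencing, in 6 libraries that form 1 group and hold 70183544 to 95175260 UMIs each. Pairs of libraries shared 12 to 43 barcodes, and 1 member barcode occurred in more than 1 library. Its title speaks of nuclei while its protocol text speaks of cells, and barcodes are called nuclei here after the title. The sources used here give no age, sex, strain, number of animals or dissection, and nothing states that the libraries are separate animals, so p-values measure only the spread between these libraries, which may be technical. The labels name no contrast, and all comparisons below were made between sets of nuclei within the libraries.

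The lateral septum is a forebrain nucleus made mostly of GABAergic projection neurons, which receive hippocampal input and send axons to the hypothalamus and midbrain. It is known for its part in aggression, maternal care, feeding and responses to threat, behaviours that steroid and peptide hormones modulate. Esr1 codes for a ligand-activated transcription factor, Prlr for a cytokine receptor that signals through JAK2 and STAT5, and Calcr for a G protein-coupled receptor that becomes an amylin receptor when bound to a RAMP protein.

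Members were a steady share of the gate. Replicates 1 to 6 held 398, 493, 360, 479, 429 and 362 members, or 19.1, 17.3, 18.5, 18.3, 18.4 and 18.8% of their gate nuclei, with a mean of 18.4% ± 0.63 (SD, n = 6). The exact 95% binomial intervals, which cover counting error only, ran from 15.9 to 18.7% in the lowest library, replicate 2, and from 17.4 to 20.9% in the highest, replicate 1, so the intervals of these extremes overlapped. The share moved with the threshold, since 39.5% ± 1.5 of gate nuclei had at least 3 of the 7 genes and 7.72% ± 0.450 had at least 5. Members were deeper than other gate nuclei, with a median of 16892 against 14853 UMIs and 4528 against 4162 detected genes, and counting the 7 genes after thinning each nucleus to 5000 UMIs left a share of 7.80% ± 0.898.

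The name of the group fits its members unevenly. Prlr was detected in 2198 members (87.2%), Esr1 in 1037 (41.1%) and Calcr in 530 (21.0%), and only 124 members (4.92%) held UMIs of all 3. By mean over the libraries the detected shares were 87.3% ± 2.04, 41.3% ± 4.38 and 21.0% ± 3.04 (SD, n = 6). In other gate nuclei the same genes were detected in 34.5, 6 and 2.39%. Free RNA in droplets gives single UMIs to nuclei that do not express a gene, so oligodendrocyte nuclei (4942 nuclei with at least 6 UMIs of Mog, Mag and Mobp, none of Gad1 or Gad2) served as a background, at their lower median depth of 4182 UMIs. There Prlr, Esr1 and Calcr were detected in 5.71, 1.38 and 0.384%. After thinning every nucleus to 5000 UMIs, which left out 10 members, 102 other gate nuclei and 3258 oligodendrocyte nuclei, the members kept Prlr in 56.4%, Esr1 in 19.2% and Calcr in 12%. The thinned background was 4.22, 2.08 and 0.356%, and other gate nuclei stood at 21.1, 2.97 and 1.47%.

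The levels of the 7 genes describe the selection and are given without a test. Levels are in CPM, the UMIs of a gene per 1000000 UMIs summed within a library and a set of nuclei. Prlr stood at 145 (lowest), 206 (median) and 238 CPM (highest of 6 libraries) in members, against 61.3, 76.1 and 79.7 CPM in other gate nuclei. Esr1 stood at 39.5, 57.5 and 62.3 CPM in members and at 5.18, 6.32 and 7.92 CPM outside. Calcr stood at 23.4, 33.9 and 42.1 CPM in members and at 3.41, 4.43 and 5.16 CPM outside. For all 3 receptors every library was higher in members, with no overlap, and replicate 4 was the lowest for Esr1 and Prlr while replicate 5 was the lowest for Calcr. Zfp804b, which codes for a zinc finger protein, was the most widely detected of the 7, in 95.7% of members, followed after Prlr by Gpc3 (81.4%), a glypican that carries heparan sulfate chains at the cell surface, Reln (64.2%), the secreted glycoprotein reelin, and Otx2os1 (63.5%), a long noncoding RNA. Otx2os1 stood at 105, 146 and 159 CPM in members against 12.2, 13.6 and 14.3 CPM outside. Oligodendrocyte nuclei held Otx2os1 at 11.9 CPM at the median, close to the level outside taken as a whole, although some nuclei outside held more, as given below for the clusters.

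**Figure D1:**
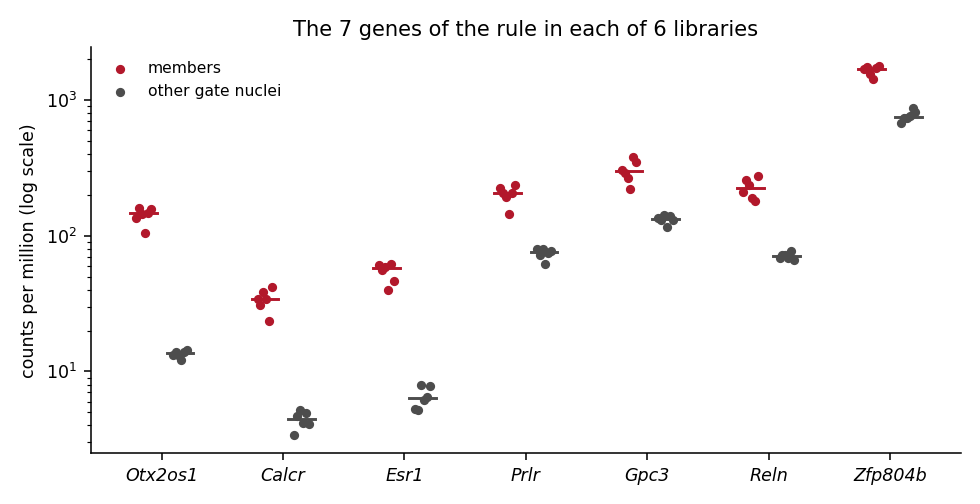
Levels of the 7 rule genes in CPM (log axis), with 1 point per library for members (red) and other gate nuclei (grey) and a line at the median of 6 libraries. The points of the 2 sets do not overlap for any of the 7 genes, which the selection itself produces.

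Among the 3 receptor genes the most frequent pattern was Prlr without the other two, in 1025 members (40.7%). Esr1 with Prlr followed with 749 (29.7%) and Calcr with Prlr with 300 (11.9%). Esr1 alone was found in 138 (5.47%), Calcr alone in 80 (3.17%), Calcr with Esr1 but no Prlr in 26 (1.03%), and none of the 3 in 79 members (3.13%). Detection of 1 UMI depends on depth, so an absent gene here is one not detected, not one shown to be silent.

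The RefSeq reference (GRCm38.p6) gave promoter windows for the 3 receptor genes and for Otx2, the transcription factor gene beside Otx2os1. The 250 bases before the most upstream listed start are shown because 3 of these genes chose the nuclei, Otx2 differed with them, and Esr1 encodes a DNA-binding receptor whose element can be searched for.
Calcr, chr6:3764714-3764963, minus strand: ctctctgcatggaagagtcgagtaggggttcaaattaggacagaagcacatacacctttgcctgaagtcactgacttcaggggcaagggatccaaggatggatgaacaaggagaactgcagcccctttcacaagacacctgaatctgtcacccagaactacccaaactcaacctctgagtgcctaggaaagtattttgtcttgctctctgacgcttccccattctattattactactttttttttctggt
Esr1, chr10:4611739-4611988, plus strand: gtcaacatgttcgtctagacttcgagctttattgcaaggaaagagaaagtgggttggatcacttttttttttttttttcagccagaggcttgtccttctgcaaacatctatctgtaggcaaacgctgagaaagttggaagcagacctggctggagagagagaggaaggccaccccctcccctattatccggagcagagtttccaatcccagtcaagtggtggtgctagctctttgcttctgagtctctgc
Prlr, chr15:10176988-10177237, plus strand: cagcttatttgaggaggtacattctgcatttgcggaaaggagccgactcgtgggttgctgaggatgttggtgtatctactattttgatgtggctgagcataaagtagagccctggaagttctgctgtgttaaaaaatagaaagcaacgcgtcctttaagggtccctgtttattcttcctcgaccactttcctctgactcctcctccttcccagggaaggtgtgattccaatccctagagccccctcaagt
Otx2, chr14:48667645-48667894, minus strand: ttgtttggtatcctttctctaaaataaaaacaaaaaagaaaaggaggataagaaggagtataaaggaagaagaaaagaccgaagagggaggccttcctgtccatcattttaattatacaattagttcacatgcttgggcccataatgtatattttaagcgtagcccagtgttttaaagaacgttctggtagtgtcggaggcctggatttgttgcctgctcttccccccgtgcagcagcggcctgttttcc
The estrogen response element was searched as GGTCA, 3 bases of any kind and TGACC, which reads the same on both strands, and its core GGTCA also alone on either strand (TGACC on the shown strand). None of the 4 windows held the core, and none of the 11 windows listed for these 4 genes held the element. Of all 32851 windows of the table, cut to the same 250 bases, 35.2% held the core and 0.0639% the element. No match says only that these letters are not in these windows, and nothing of the receptor.

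The members lay partly together on genes that the selection did not read. Gate nuclei were clustered on 2000 variable genes with the rule genes left out, which gave 37 clusters numbered by size. Otx2 was not kept out of the choice of variable genes. Its reads may not be told apart from those of the rule gene Otx2os1, as given below. Clusters 2, 18 and 26 consisted of members to 62.2, 77.6 and 83.6%, against 18.3% over the gate. These 3 clusters held 974 members, 38.6% of all (38.9% ± 4.17 per library, SD, n = 6), and members were 71.6% of their 1361 nuclei. The other 1547 members were spread over further clusters, in which members made up at most 37.1%. Inside the 3 clusters members had a median of 13376 UMIs and 0.205% predicted doublets. Outside them members had a median of 20522 UMIs and 26.8% predicted doublets. Since the clusters and the 7 genes come from the same nuclei, this is a description and no test.

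**Figure D2:**
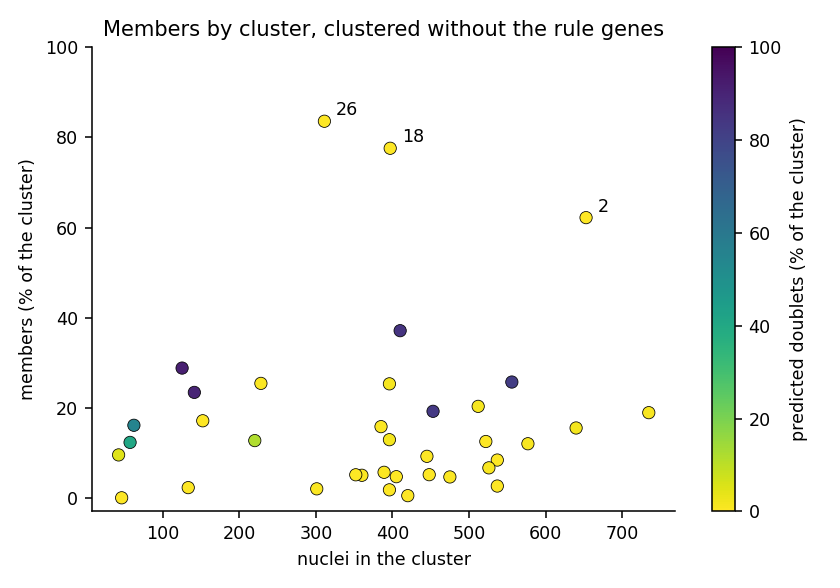
Share of members (percent) against the number of nuclei for each of 37 clusters of gate nuclei, coloured by the percent of predicted doublets. Clusters 2, 18 and 26 stand at 62.2 to 83.6% members with few predicted doublets, and the dark clusters, with over 50% predicted doublets, hold up to 37.1% members.

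By CPM Otx2os1, Calcr, Esr1, Prlr and Reln were higher in members of the 3 clusters than in members elsewhere. Otx2os1 was at 297 CPM ± 31.2 there and at 82.6 ± 11.3 in members elsewhere (SD, n = 6). Calcr was at 70.6 ± 18.9 against 20.3 ± 2.17 CPM, Esr1 at 101 ± 16.0 against 37.4 ± 8.05 CPM, and Prlr at 309 ± 22.1 against 163 ± 31.4 CPM. Nuclei of the 3 clusters that missed the threshold still carried Otx2os1 at 94.1 ± 27.4 and Prlr at 180.4 ± 40.7 CPM, above the 11.4 ± 0.484 and 71.3 ± 6.53 CPM of other gate nuclei elsewhere. Reln differed less between members inside (306 ± 50.8 CPM) and outside (195 ± 33.9 CPM) than Otx2os1 did. By detection Reln went the other way, in 53.2% of members inside and 71.1% of members elsewhere. Otx2os1 was detected in 79.3 and 53.5%. Members elsewhere were deeper (median 20522 against 13376 UMIs), and detection of 1 UMI depends on depth.

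Predicted doublets and glial RNA moved with membership. Scrublet, a caller of droplets that hold more than 1 nucleus, marked 416 members (16.5%) and 1160 other gate nuclei (10.3%), against 8.39% of all nuclei past the filters, and none were removed because the rule does not. Replicate 4 stood apart with 27.8% of its 479 members marked, against 11.7 to 15.2% in the other libraries. By mean over the libraries each gene of the astrocyte (6 of 6) and oligodendrocyte (6 of 6) marker lists was higher in members. The same held for the oligodendrocyte precursor (4 of 4), microglia (6 of 6) and ependymal (5 of 5) lists. Sums of these lists were higher in members in 6 of 6 libraries for astrocytes and in 5 of 6 for the others. Their summed levels were 396 to 636 against 318 to 423 CPM for astrocytes, 216 to 478 against 214 to 282 CPM for oligodendrocytes and 71.2 to 134 against 71.3 to 87.8 CPM for microglia, with Slc1a2 at 300.0 against 249 CPM and Csf1r at 6.26 against 3.12 CPM. The endothelial list had 3 of 5 genes higher, with sums of 4.25 to 17.2 against 6.47 to 12.5 CPM. Lists of pericytes or smooth muscle and of fibroblasts had 2 of 5 genes higher each. Therefore all 4 comparisons below were also made without predicted doublets. The comparison with other gate nuclei, and only that one, was also made without nuclei holding 3 or more UMIs of 11 glial and vascular genes, called nuclei holding glial UMIs below. This left 675 members and 3343 other gate nuclei, with Oxtr and Avpr1a too low to test there. The cut also kept shallower nuclei. Library medians were 10990 to 14178 UMIs in these members, against 15969 to 18217 in all members. In other gate nuclei they were 10302 to 12965 against 13190 to 16380 UMIs. The part of doublets and glial RNA in the differences was not tested beyond these values.

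Summed markers of the lateral septum, of neurons in general and of GABAergic neurons are given as a description, without a test of the lists. Of 14 lateral septum markers outside the gate only Sox11 had a higher mean in members (32.1 against 26.1 CPM), and the summed level was 1001 to 1074 against 1281 to 1358 CPM. The general neuron list had 0 of 5 genes higher in members (Rbfox3 at 252 against 306 CPM, Snap25 at 671 against 736 CPM) and the GABAergic list 0 of 2. Slc32a1, the vesicular GABA transporter, stood at 14.3 CPM in members and at 15.4 CPM outside. Glutamatergic markers besides Slc17a6, which the rule holds at 0, were low, at 1.86 to 3.32 against 1.64 to 4.24 CPM summed. Of these, 4 of 5 genes were higher in members. Hypothalamic or preoptic markers were low too, at 6.07 to 8.73 against 6.31 to 7.92 CPM summed. Here 7 of 9 genes were higher in members, and Otp was at 0. The bed nucleus or amygdala list had 5 of 7 genes higher (Six3 at 11.9 against 5.92 CPM), with Prkcd lower at 53.7 against 74.4 CPM. Its sums were 109 to 144 against 124 to 137 CPM. The striatal list was higher in members in 6 of 6 libraries (718 to 982 against 598 to 690.3 CPM), carried by Pde10a at 706 against 497 CPM, while Drd1, Ppp1r1b and Adora2a stayed at 2.97, 0.939 and 0.643 CPM.

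Members differed from other gate nuclei over many genes that the rule did not read. Counts were summed per library and set and tested with edgeR's quasi-likelihood test with the library as a block, with p-values adjusted by Benjamini-Hochberg over 17155 genes. The 7 genes were picked from clusters of these nuclei, so genes that vary with them were favoured by the choice, and the p-values measure how steady a difference was over 6 libraries, not whether a separate cell type exists. At adjusted p under 0.05, 2171 genes were higher (12.7%) and 1953 lower (11.4%) in members, with 208 at a 2-fold difference or more, 155 of them higher. The median log2 difference over all genes was 0.01. The genes called below had the same direction in 6 of 6 libraries unless a smaller number is given.

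The largest higher genes with ordinary symbols and at least 20 CPM were led by Sulf1, a secreted enzyme that trims 6-O-sulfates from heparan sulfate. Sulf1 stood at 72.9 (lowest), 82.6 (median) and 95.1 CPM (highest library) in members against 24.2, 26 and 30.3 CPM in other gate nuclei. All libraries of members lay above all others, with a log2 difference of 1.60 ± 0.04 (SE) and an adjusted p of 2.8e-14. Nfia, a nuclear factor I transcription factor used by glia and by some neurons, stood at 549.5, 598 and 634 CPM against 236, 248 and 259 CPM. The groups did not overlap (log2 difference 1.22 ± 0.04, adjusted p = 1.9e-13), and without nuclei holding glial UMIs the difference was 1.76. Dlk1, a membrane protein of the delta family, stood at 21.9, 26.1 and 29.1 CPM against 7.83, 9.55 and 12.1 CPM, again without overlap (1.37 ± 0.08, adjusted p = 4.7e-10). Other genes of this rank included L3mbtl4, a chromatin-binding protein, Ecel1, a neuronal metallopeptidase, Asb4, an adaptor of ubiquitin ligases, Kitl, the ligand of the receptor Kit, Calb1, the calcium-binding protein calbindin, and Spag16, Lrrc9 and Mei4. Their log2 differences ran from 0.93 ± 0.04 (Mei4) to 1.37 ± 0.06 (L3mbtl4). The choice of genes by size and by 1 direction in 6 libraries favours sets that lie apart. Calb1, for example, was at 33.6, 46.3 and 59.2 CPM in members and at 19.2, 23.4 and 26.7 CPM outside. Genes named below for the smallest adjusted p of their list are favoured in the same way. The share of all tested genes without overlap is not given here, so a lack of overlap is a description only.

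Sulf1 and Nfia were also high in the nuclei of the 3 clusters that missed the threshold. Neither gene was kept out of the clustering, so these values describe the clusters and give no separate support. Sulf1 was at 148 CPM ± 16.2 in members inside the 3 clusters, 135 ± 30.6 in the other nuclei of those clusters, 58.4 ± 7.94 in members elsewhere and 23.8 ± 2.03 in other gate nuclei elsewhere (SD, n = 6). Nfia followed the same order, at 789.6 ± 68.9, 700.1 ± 98.9, 518 ± 21.2 and 235 ± 11.8 CPM. For both genes members and other nuclei of the 3 clusters differed by less than 1 SD of the latter. Oligodendrocyte nuclei held Nfia at 1054 CPM ± 45.7 and Sulf1 at 13.7 ± 2.57.

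The largest lower gene was Dach2, a transcription factor of the dachshund family. It stood at 24.0, 39.0 and 53.4 CPM in members against 109, 134 and 142 CPM in other gate nuclei. The sets did not overlap (log2 difference -1.74 ± 0.11, adjusted p = 1.1e-09), and in members inside the 3 clusters Dach2 was at 6.02 CPM ± 2.58, below the 95.7 ± 8.61 of oligodendrocyte nuclei. Met, the receptor of hepatocyte growth factor, stood at 11.3, 12.6 and 17.7 against 28.0, 28.9 and 31.2 CPM (-1.18 ± 0.07, adjusted p = 6.6e-10). Etv1, an ETS family transcription factor, stood at 8.20, 12.8 and 19.8 against 21.4, 25.6 and 30.3 CPM (-0.99 ± 0.11, adjusted p = 1.2e-06). Both lay without overlap. The remaining lower genes included the protease gene Tll1, the channel-associated Stac2, the orphan nuclear receptor Nr4a3, the secreted Fstl1, the unconventional myosin Myo3b, the collagen Col26a1, the metabotropic glutamate receptor Grm4 and the AMPA receptor auxiliary subunit Cnih3. Their log2 differences ran from -1.13 ± 0.08 (Tll1) to -0.96 ± 0.05 (Cnih3).

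**Figure D3:**
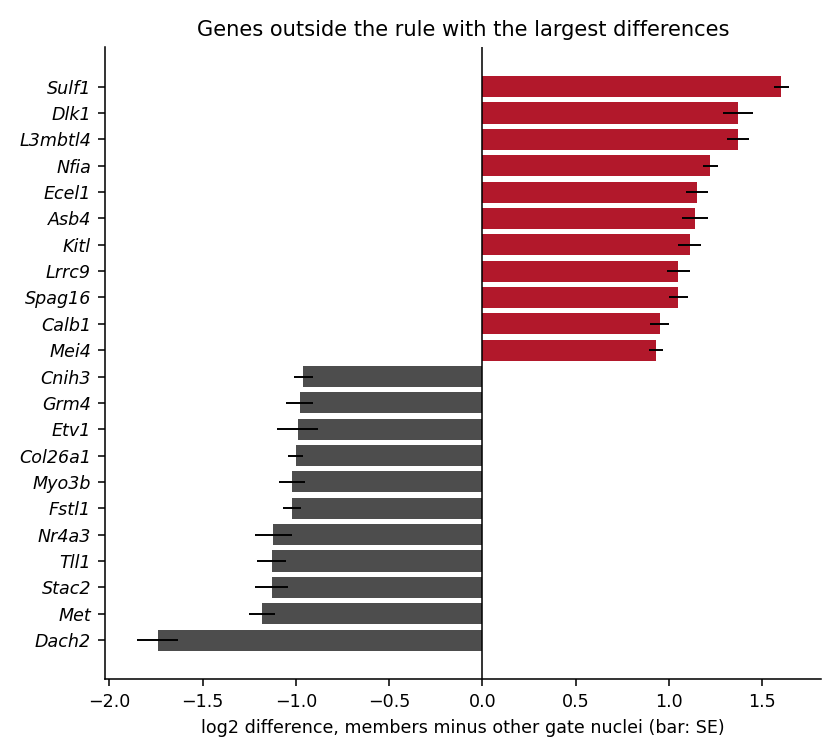
Log2 difference between members and other gate nuclei for 11 of the 12 higher (red) and 11 of the 12 lower (grey) genes with the largest differences, with bars of 1 standard error. Sulf1 at 1.60 and Dach2 at -1.74 are the ends of the range.

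Without nuclei holding glial UMIs the differences of Etv1, Grm4 and Cnih3 grew to -2.07, -1.82 and -1.62. All 24 genes kept their direction and their call under each of 17 alternatives run. Met was the most dependent on the threshold, at -0.56 when nuclei with 3 of the 7 genes counted as members and -1.71 when 5 were required.

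Steroid receptor genes differed in both directions. Nr3c1, the glucocorticoid receptor, was higher at 128 (lowest), 132 (median) and 145 CPM (highest library) in members against 88.7, 93.3 and 95.2 CPM outside (log2 difference 0.49 ± 0.03, adjusted p = 2.3e-09), and Nr3c2, the mineralocorticoid receptor, was lower at 490.1, 539 and 579.7 against 628, 693 and 729 CPM (-0.41 ± 0.03, adjusted p = 1.5e-08). Both corticosteroid receptor genes were without overlap. Pgr, the progesterone receptor, stood at 41.8, 45.0 and 51.3 against 37.9, 43.3 and 44.0 CPM and did not pass (0.08 ± 0.04, adjusted p = 0.16), although it did without predicted doublets (0.17, adjusted p = 0.008) and without nuclei holding glial UMIs (0.40, adjusted p = 0.0016). Esr2, estrogen receptor beta, was near its detection limit at 1.62, 2.64 and 5.22 against 2.08, 2.73 and 3.92 CPM and did not pass (adjusted p = 0.80).

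Of 33 genes tested in the list of steroid and nuclear receptors and their coregulators, 5 were higher and 10 lower, against 12.7% higher and 11.4% lower over all genes, with a median of 0.00. Besides Nr3c1 the higher genes included Rorb, Pgrmc1 and Greb1, a cofactor of estrogen receptor alpha, at 5.53 CPM ± 1.26 against 3.06 ± 1.05 (0.82 ± 0.15, adjusted p = 0.00046). Lower genes included the activity-regulated Nr4a1, Nr4a2 and Nr4a3 and Thrb, a thyroid hormone receptor (467 ± 19.6 against 555 ± 23.5 CPM, -0.29 ± 0.02, adjusted p = 6.7e-08). Greb1 and Thrb are named here after their values were seen.

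Partners of the prolactin receptor showed small differences except Stat5a. Stat5a, a transcription factor that prolactin activates, stood at 2.18, 2.95 and 3.85 CPM in members against 1.29, 1.48 and 1.60 CPM outside. The sets did not overlap (1.02 ± 0.16, adjusted p = 0.00011). The level is low, and reads may be split between Stat5a and its close copy Stat5b. Stat5b was higher at 74.2, 76.3 and 80.3 against 61.3, 65.8 and 67.9 CPM (0.20 ± 0.04, adjusted p = 0.00026). Jak2, the kinase bound to the receptor, stood at 54.4, 60.1 and 64.9 against 50.3, 54.2 and 55.9 CPM, with overlap. Its difference of 0.12 ± 0.04 passed (adjusted p = 0.026) but lost the call in 12 of 17 alternatives, among them the omission of replicate 2, 3, 4 or 6 (0.10, 0.11, 0.11 and 0.11). Lepr, the leptin receptor, was lower at 2.09, 2.98 and 4.77 against 4.51, 5.54 and 7.14 CPM, with overlap between libraries (-0.89 ± 0.13, adjusted p = 6.4e-05). Ghr, the growth hormone receptor, stood at 242, 314 and 351 against 332, 346 and 359 CPM, lower in 5 of 6 libraries (-0.19 ± 0.05, adjusted p = 0.0079), a call lost in 4 alternatives. The whole list held 5 higher and 8 lower genes of 28 tested, with a median of 0.00, against 12.7 and 11.4% over all genes.

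The calcitonin and amylin system was hardly measurable beyond Calcr. Of its 10 other genes 3 were tested and none passed, and 7 were too low to test. Ramp1, a partner of Calcr and of Calcrl, stood at 4.43, 6.39 and 11.4 CPM in members against 4.94, 6.22 and 7.86 CPM outside (0.05 ± 0.12, adjusted p = 0.80). Calcrl, the receptor for CGRP when bound to Ramp1, stood at 4.18, 6.85 and 13.0 against 6.13, 8.09 and 9.26 CPM (-0.19 ± 0.15, adjusted p = 0.41). For both genes the highest library was replicate 4, the library with the most predicted doublets, and the sets overlapped. Calcrl passed as lower without predicted doublets (-0.79, adjusted p = 0.0029), in thinned nuclei (-0.65, 0.0088) and without nuclei holding glial UMIs (-1.36, 0.0012). Calcrl also passed against nuclei with at most 1 rule gene (-0.81, 0.0011) and with at least 3 (-0.61, 0.00026). It did not pass against depth-matched nuclei (-0.28, adjusted p = 0.25) or with at least 5 rule genes (-0.01, 0.99). Without nuclei holding glial UMIs Ramp1 was at -1.35 (adjusted p = 0.0087). Ramp2 stood at 0.232, 0.561 and 1.04 CPM and Ramp3 at 0, 0.109 and 0.260 CPM in members, and neither was tested.

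**Figure D4:**
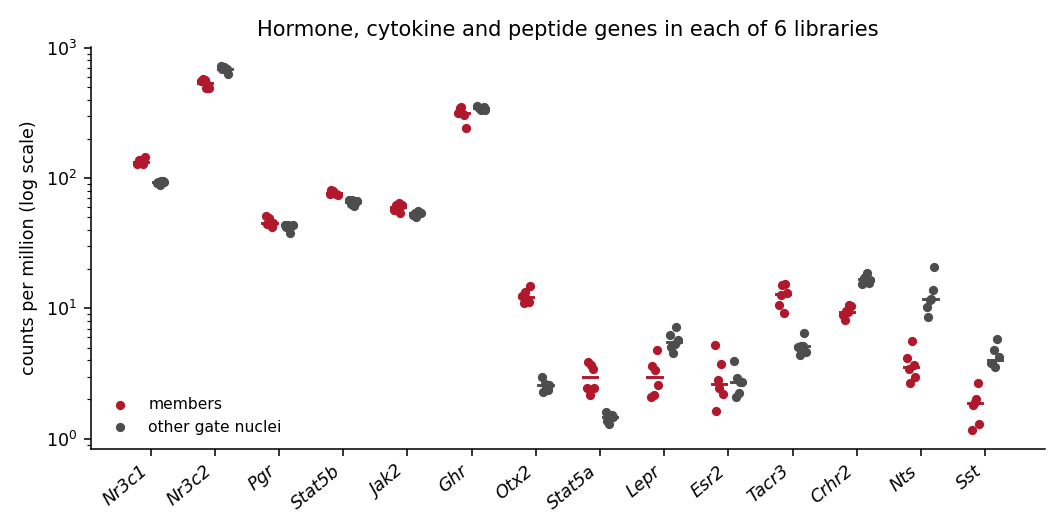
Levels in CPM (log axis) of hormone, cytokine and peptide genes outside the rule plus Otx2, with 1 point per library for members (red) and other gate nuclei (grey) and a line at the median. Nr3c1, Otx2, Stat5a, Stat5b and Tacr3 lie apart and higher in members, Nr3c2, Crhr2, Nts and Sst lie apart and lower, and Pgr, Jak2, Ghr, Lepr and Esr2 overlap.

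Gpc3 carries heparan sulfate, which several enzymes build and trim. Besides Sulf1, Ndst4, an enzyme that deacetylates and sulfates the growing chain, was higher at 138, 159.6 and 196 CPM against 89.6, 94.5 and 101 CPM (0.73 ± 0.04, adjusted p = 8.3e-10). Hs3st5, a 3-O-sulfotransferase, was lower at 73.8, 93.2 and 115 against 141, 152 and 157 CPM (-0.75 ± 0.06, adjusted p = 1.3e-08). Neither overlapped between the sets. Of 28 genes tested in this list 6 were higher and 6 lower, against 12.7% higher and 11.4% lower over all genes, with a median of 0.04.

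Of 11 tested genes of the reelin pathway 1 was higher and 1 lower, near the 12.7 and 11.4% over all genes. The receptors Vldlr and Lrp8 did not pass, at log2 differences of 0.03 ± 0.04 and 0.04 ± 0.04 (adjusted p = 0.68 and 0.53). Dab1, the adaptor that the receptors bind, stood at 625, 655 and 710 against 583, 596 and 676 CPM, with overlap (0.08 ± 0.02, adjusted p = 0.026). That call was lost in 8 of 17 alternatives, among them the omission of replicate 1, 2, 3 or 5 (0.07, 0.08, 0.07 and 0.08), and without nuclei holding glial UMIs Dab1 passed in the opposite direction (-0.19, adjusted p = 0.026). Fyn, the kinase that phosphorylates Dab1, was at -0.09 ± 0.03 (adjusted p = 0.013), and lost its call in 6 alternatives, among them the omission of replicate 5 (-0.08).

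Of all genes named in the comparison with other gate nuclei Otx2 had the largest difference. Otx2, a homeobox factor known from forebrain and eye development, stood at 11, 12.2 and 14.8 CPM in members against 2.29, 2.56 and 2.96 CPM in other gate nuclei. The sets lay far apart (2.23 ± 0.09, adjusted p = 7.9e-12), and without nuclei holding glial UMIs the difference was 2.98. Members inside the 3 clusters held Otx2 at 23.6 CPM ± 3.66, members elsewhere at 8.29 ± 0.763, other nuclei of those clusters at 13.0 ± 4.21 and oligodendrocyte nuclei at 4.57 ± 1.33. Otx2 and Otx2os1 overlap on opposite strands of the same chromosome (GENCODE annotation). The sources used here do not give the strand setting of the authors' counting, so whether reads of the 2 genes were told apart is not known. The level of Otx2 is therefore not taken as independent of the rule. Zfhx3, a zinc finger homeobox factor, was lower at 567, 585 and 648 against 865, 881 and 923 CPM (-0.62 ± 0.03, adjusted p = 1.4e-11). Zfp804a, the paralog of the rule gene Zfp804b, was lower too, at 381, 433 and 460 against 554, 604 and 638 CPM (-0.53 ± 0.03, adjusted p = 2.6e-09), so the 2 paralogs stood in opposite order. In the list of 89 tested factors 20 were higher and 29 lower, against 12.7% higher and 11.4% lower over all genes. The higher ones included all 3 nuclear factor I genes listed, Nfia, Nfix (0.68 ± 0.05) and Nfib (0.33 ± 0.03), and Six3 (0.96 ± 0.08), and the lower ones Foxp2 (-0.80 ± 0.06), the last 4 named after their values were seen.

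Neuropeptide precursor genes were low, and Nts and Sst were lower in members. Nts, neurotensin, stood at 2.69, 3.55 and 5.63 CPM against 8.57, 11.7 and 20.7 CPM outside, without overlap (-1.73 ± 0.15, adjusted p = 8.4e-08). Sst, somatostatin, stood at 1.16, 1.87 and 2.66 against 3.58, 4 and 5.81 CPM, also without overlap (-1.27 ± 0.14, adjusted p = 2.3e-06). The oligodendrocyte background of Nts was 2.01 CPM ± 0.635, and members inside the 3 clusters were at 1.27 ± 0.621. With the granins Chga (-0.71 ± 0.05) and Chgb, these were the 4 lower genes of 14 tested precursors, and none was higher, against 11.4 and 12.7% over all genes. A precursor was called higher in some alternatives, 1 without replicate 4, 1 without predicted doublets, 1 in thinned nuclei and 2 against depth-matched nuclei. Against the Ano2 and Ntf3 nuclei described below 4 of 11 tested precursors were higher, Cartpt, Penk, Scg2 and Vgf. In that comparison 3 were lower, Sst, Nts and Chga, against 17.0% higher and 16.5% lower over all genes.

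Of 36 tested peptide receptor genes 8 were higher and 12 lower, against 12.7% higher and 11.4% lower over all genes. Tacr3, the neurokinin B receptor, stood at 9.16, 12.9 and 15.4 CPM against 4.42, 5.11 and 6.49 CPM, without overlap (1.24 ± 0.10, adjusted p = 2.7e-08). Oprm1, the mu opioid receptor, was higher at 63.2, 69.6 and 76.9 against 44.5, 45.8 and 52.2 CPM (0.54 ± 0.05, adjusted p = 2.6e-07). Crhr2, the urocortin receptor, was lower at 8.10, 9.41 and 10.6 against 15.4, 16.8 and 18.7 CPM (-0.88 ± 0.07, adjusted p = 6.3e-08). The receptor of oxytocin, Oxtr, and the vasopressin receptor Avpr1a stood at medians of 1.30 and 0.658 CPM in members against 1.66 and 0.527 CPM, and neither passed (adjusted p = 0.69 and 0.98).

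Among monoamine and acetylcholine receptors 2 of 29 tested genes were higher, both for serotonin, and 8 lower, against 12.7% higher and 11.4% lower over all genes. Htr2c stood at 585, 758 and 849 CPM in members against 396, 414 and 432 CPM (0.80 ± 0.04, adjusted p = 1.2e-10). Htr7 stood at 135, 160 and 164 against 105, 113 and 123 CPM (0.43 ± 0.03, adjusted p = 2.1e-08), with replicate 4 lowest in members. Htr1f was lower at 186, 216 and 251 against 301, 310.2 and 338 CPM (-0.57 ± 0.04, adjusted p = 6.5e-09). None of these 3 serotonin receptor genes overlapped between the sets. Drd3, a dopamine receptor gene used as a septal marker, stood at 4.87, 11.4 and 19.0 against 10.8, 13.8 and 18.1 CPM, lower in 4 of 6 libraries (-0.38 ± 0.14, adjusted p = 0.048), and lost that call without replicate 2, 3, 5 or 6 (-0.31, -0.25, -0.44 and -0.31).

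Glutamate, GABA and glycine receptor genes differed in both directions. Of 24 glutamate receptor genes 12 were lower and 6 higher, with a median of -0.13, and of 21 GABA and glycine receptor genes 5 were lower and 9 higher, with a median of 0.04, against 12.7% higher and 11.4% lower over all genes (the lists were not tested against each other). Gria3, an AMPA receptor subunit, was lower at 673, 687 and 699 against 800.1, 868 and 879 CPM (-0.36 ± 0.03, adjusted p = 7.3e-09), without overlap. Glra1, a glycine receptor subunit, was higher at 5.22, 7.43 and 9.51 against 2.50, 2.98 and 4.17 CPM (1.24 ± 0.12, adjusted p = 2.3e-07). Gabrb1 was higher (0.33 ± 0.02) and Gabrg3 lower (-0.22 ± 0.03), both GABA-A receptor subunits, and Gabrg3 lost its call without nuclei holding glial UMIs (-0.11, adjusted p = 0.077).

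Of 56 potassium and HCN channel genes 15 were higher and 17 lower, against 12.7% higher and 11.4% lower over all genes. The higher ones included Kcnmb2, an auxiliary subunit of BK channels, at 83.6, 103 and 116 against 54.0, 59.9 and 76.6 CPM (0.67 ± 0.05, adjusted p = 8e-09). Of 38 sodium, calcium and TRP channel genes 9 were higher and 18 lower, against the same 12.7 and 11.4%, with a median of -0.13. Ryr2, the calcium release channel of the endoplasmic reticulum, was lower (-0.48 ± 0.03). Scn3a, a sodium channel, was higher (0.39 ± 0.03).

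Adhesion, guidance and growth factor genes differed in both directions, and those named here were picked for the smallest adjusted p of their lists. Lrrtm4, a postsynaptic organiser, was lower at 3133, 3334 and 3504 against 4678, 4951 and 5041 CPM (-0.60 ± 0.02, adjusted p = 6.5e-12), and Cdh7, a cadherin, was lower as well (-0.76 ± 0.03). Slit1, a secreted guidance cue, was lower at 85.7, 99.6 and 107 against 141, 149 and 162 CPM (-0.66 ± 0.03, adjusted p = 4.6e-11), whereas Efna5, an ephrin, was higher at 687, 789 and 832 against 500, 525 and 585 CPM (0.52 ± 0.03, adjusted p = 1.8e-09). Fgf13, an intracellular regulator of sodium channels, was higher at 337, 377 and 394 against 180.1, 192 and 198 CPM (0.92 ± 0.03, adjusted p = 5.5e-13), while Gfra1, a GDNF coreceptor, was lower at 115, 135 and 177 against 238, 249 and 266 CPM (-0.90 ± 0.05, adjusted p = 1.7e-10). None of these genes overlapped between the sets. The adhesion list had 14 higher and 18 lower of 60, the guidance list 12 and 19 of 45, and the growth factor list 16 and 16 of 49, against 12.7% higher and 11.4% lower over all genes.

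Immediate early genes, a class induced by neuronal activity, were mostly lower in members. Of 21 tested genes 15 were lower and 1 was higher, with a median of -0.75 against 0.01 over all genes and against 11.4% lower and 12.7% higher genes in all. Egr3 stood at 6.38, 7.19 and 8.36 CPM in members against 10.7, 14.4 and 17.9 CPM outside, without overlap (-0.99 ± 0.09, adjusted p = 1.1e-07). Homer1, whose short form is induced by activity, stood at 179.8, 195 and 214 against 273, 297 and 352 CPM, without overlap (-0.66 ± 0.05, adjusted p = 4.3e-09). The exception was Bdnf, the brain-derived neurotrophic factor, at 3.73 CPM ± 1.02 in members and 1.14 ± 0.235 outside (1.67 ± 0.19, adjusted p = 2.4e-06), named after its value was seen. By count alone the list had 14 lower and 1 higher of 21 without predicted doublets, 15 and 1 of 21 without replicate 4, 10 and 1 of 15 in thinned nuclei, 12 and 1 of 18 against other gate nuclei drawn to the members' depth, and 9 and 0 of the 12 still tested without nuclei holding glial UMIs. Over all genes the lower and higher calls were 1879 and 1869 without predicted doublets and 1779 and 1915 without replicate 4. They were 1283 and 1282 in thinned nuclei, 1467 and 1287 against depth-matched nuclei and 1129 and 980 without nuclei holding glial UMIs. The numbers of all genes tested there are not given, so these are counts and not shares.

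Levels of some genes outside the rule changed with the number of rule genes detected rather than only at the threshold. Others were level from 1 to 3 genes and changed from 4 on. Met stood at 26.8, 28.5 and 28.0 CPM with 1, 2 and 3 genes. With 4 and with 5 or more it stood at 17.2 and 8.76 CPM, and with none at 49.3 CPM. Stat5b stood at 64.6, 65.6 and 65.3 CPM with 1, 2 and 3 genes and at 72.9 and 82.3 CPM beyond. For the rule genes themselves the number fixes the direction, and their values only describe the threshold. Just outside, with 3 of the 7 genes (2887 nuclei), Otx2os1 stood at 30.1 CPM ± 3.67 and Calcr at 8.25 ± 1.31, and just inside, with 4 (1467 nuclei), at 87.3 ± 11.3 and 16.0 ± 3.33 (SD, n = 6). Sulf1 was at 33.2 ± 2.84 and 68.7 ± 8.65 CPM on the 2 sides and Nfia at 333 ± 34.2 and 498 ± 23.3. With 5 or more (1054 nuclei) Sulf1 reached 101 ± 18.7 CPM and Htr2c 834 ± 136, and Otx2, which is not taken as independent of the rule, 17.4 ± 3.09. Dach2 did not follow the number to the end, with 30.7 ± 2.78 CPM at 4 genes and 52.2 ± 24.3 at 5 or more. Depth rose with the number too, from a median of 12092 UMIs with none of the 7 genes to 16347 with 4 and 37412 in the 41 nuclei with all 7, of which 46.3% were predicted doublets.

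**Figure D5:**
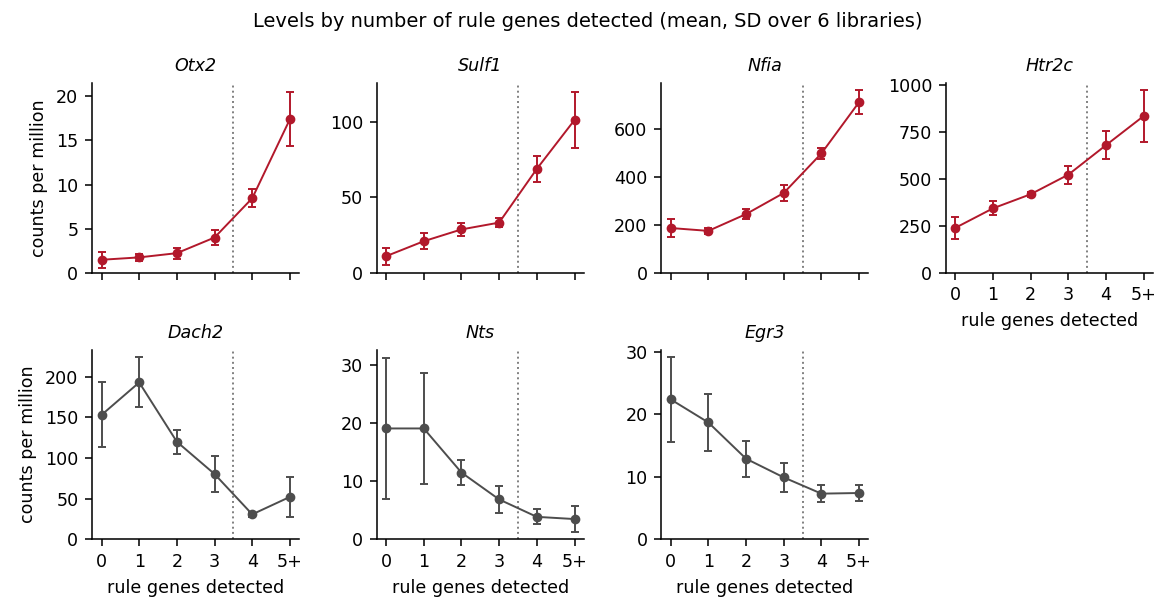
Level in CPM (mean, bars 1 SD over 6 libraries) of 7 genes that the rule did not read against the number of the 7 rule genes detected in a gate nucleus, with a dotted line at the threshold. Otx2 overlaps the rule gene Otx2os1, so its level is not taken as independent of the rule. Otx2, Sulf1, Nfia and Htr2c are highest at 5 or more, and Dach2, Nts and Egr3 are low on the member side.

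Members with at least 2 of the 3 receptor genes (1199 nuclei, median 17684 UMIs) were set against members with at most 1 (1322 nuclei, median 16173 UMIs). Because every member holds at least 4 of the 7 genes, the second set had to hold at least 3 of Otx2os1, Gpc3, Reln and Zfp804b, and the rule genes were not tested. Of 13430 genes 88 were higher (0.655%) and 168 lower (1.25%) in the receptor-rich set by edgeR's quasi-likelihood test. Colgalt2, a collagen galactosyltransferase, stood at 22.5, 26.5 and 31.8 CPM in receptor-rich members against 9.34, 15.9 and 19.2 CPM in receptor-poor ones, without overlap (0.83 ± 0.10, adjusted p = 0.0003). Scml4, a polycomb group protein, was higher at 51.4, 58.7 and 60.7 against 36.1, 40.1 and 42.1 CPM (0.53 ± 0.06, adjusted p = 0.00023). Palmd, a palmdelphin gene, was lower at 42.5, 51.0 and 57.4 against 67.2, 82.3 and 105 CPM (-0.70 ± 0.06, adjusted p = 1.3e-05). Necab1, a calcium-binding protein gene, was lower at 52.2, 83.7 and 103 against 119, 140.4 and 168 CPM (-0.82 ± 0.10, adjusted p = 0.0003), and Col6a3, a collagen, at 12.2, 17.5 and 22.2 against 22.7, 27.2 and 44.0 CPM (-0.79 ± 0.11, adjusted p = 0.0007). These 5 genes did not overlap between the sets, which their choice by size and by 1 direction in 6 libraries favours.

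Further genes of that comparison varied in firmness. Hpcal1 (0.61 ± 0.11) and Samhd1 (0.59 ± 0.11) were higher and Cpa6 (-0.79 ± 0.10) lower, all in 6 of 6 libraries. Hpcal1 and Cpa6 kept their calls in each of 13 alternatives, while Samhd1 missed the threshold in thinned nuclei (0.61, adjusted p = 0.065). Gzmk (0.54 ± 0.12, adjusted p = 0.025) lost its call without replicate 2, 3, 4 or 6 (0.43, 0.52, 0.56 and 0.50), and Pax6 (-0.76 ± 0.18, adjusted p = 0.038) without replicate 2, 3 or 6 (-0.64, -0.55 and -0.80). The count of 256 genes fell to 162 without replicate 2 and to 154 without replicate 3. Of 24 tested genes of the prolactin list Stat5b alone passed, as higher. Of 27 of the steroid list Greb1 and Nr3c1 passed as higher and Nr3c2 as lower. Over all 13430 genes of this comparison 0.655% were higher and 1.25% lower. Greb1, named after its values were seen, stood at 8.55 CPM ± 2.39 in receptor-rich and 2.31 ± 0.718 in receptor-poor members (1.81 ± 0.23, adjusted p = 0.0003). Sulf1 and the nuclear factor I genes, all higher in members than in other gate nuclei, were lower in receptor-rich than in receptor-poor members, at -0.42 ± 0.06 for Sulf1 (adjusted p = 0.0012), -0.45 ± 0.07 for Nfix, -0.32 ± 0.05 for Nfib and -0.20 ± 0.05 for Nfia (adjusted p = 0.039).

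Members were compared with 2 other sets of gate nuclei that are no members, each with UMIs of both genes of a pair and not of both genes of 3 other pairs. The nuclei with Col25a1 and Tll1 (1135) had the most similar mean profile (Pearson r = 0.9898 over 15601 genes, a description), and those with Ano2 and Ntf3 (1261) the next (r = 0.9835). The members themselves held both Col25a1 and Tll1 in 252 nuclei and both Ano2 and Ntf3 in 248, so the sets are not cell types that exclude each other. All pair genes were left out of these tests. Against the Col25a1 and Tll1 nuclei 1497 of 14277 genes were higher (10.5%) and 1661 lower (11.6%), and against the Ano2 and Ntf3 nuclei 2430 of 14257 were higher (17.0%) and 2348 lower (16.5%).

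The receptor genes set members apart from both sets, as the selection requires. Calcr stood at 0, 3.37 and 7.40 CPM in the Col25a1 and Tll1 nuclei and at 0.381, 1.24 and 2.60 CPM in the Ano2 and Ntf3 nuclei, and Esr1 at medians of 4.41 and 2.60 CPM. Prlr was not confined to members, with 77.8, 99.4 and 121 CPM in the Ano2 and Ntf3 nuclei, more than the 33.5, 37.3 and 55.7 CPM of the Col25a1 and Tll1 nuclei. In a smaller set with Col6a3 and Tacr1 (222 nuclei) Prlr reached 191 CPM ± 56.2 and Gpc3 506 ± 91.0, levels that overlapped with members (202 ± 32.2 and 302 ± 57.1), while Calcr was at 0.658 ± 1.61 CPM there.

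Sulf1, Calb1, Dlk1 and L3mbtl4 were among the leading higher genes against the Col25a1 and Tll1 nuclei, at log2 differences of 2.56 ± 0.15, 2.33 ± 0.11, 2.23 ± 0.15 and 2.14 ± 0.12. Calb1 stood at 33.6, 46.3 and 59.2 CPM in members and at 6.45, 8.81 and 12 CPM in that set, without overlap (adjusted p = 2.1e-11). The leading lower genes included Etv1 (-2.04 ± 0.11), Gfra1 (-1.75 ± 0.07), Styk1 (-1.64 ± 0.08) and Cnih3 (-1.55 ± 0.05). Gfra1 stood at 414, 439.6 and 499 CPM in the Col25a1 and Tll1 nuclei against 115, 135 and 177 CPM in members (adjusted p = 3.2e-12). Of 19 immediate early genes tested there 12 were lower and none higher by edgeR, with a median of -0.78, against 11.6% lower and 10.5% higher over all genes.

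Against the Ano2 and Ntf3 nuclei the leading higher genes were Calb1 (2.73 ± 0.13), Asb4 (2.66 ± 0.17), Kcnmb2 (2.64 ± 0.07), Dlk1 (2.57 ± 0.13) and Ecel1 (2.56 ± 0.13). Kcnmb2 stood at 83.6, 103 and 116 CPM in members against 11.2, 14.9 and 20.8 CPM, without overlap (adjusted p = 2.1e-15). The leading lower genes were Met (-2.44 ± 0.09), the anion exchanger Slc26a4 (-2.37 ± 0.08), the secreted neurotrophic protein Ndnf (-2.23 ± 0.08), the matrix protein Hmcn1 (-2.19 ± 0.11) and Mctp2 (-2.13 ± 0.14). Met stood at 59.7, 64.8 and 87.3 CPM in the Ano2 and Ntf3 nuclei against 11.3, 12.6 and 17.7 CPM in members. Of 16 immediate early genes tested 6 were lower and 1, Bdnf, higher, with a median of -0.33, against 16.5 and 17.0% over all genes, and Fos, Fosb, Egr1 and Nr4a1 were not among the lower ones. Both sets share the members as the other side of the comparison, so the genes they have in common are given side by side only.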

How the data were processed

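The authors deposited raw UMI counts of 32285 genes per barcode for 6 libraries made with the Chromium Single Cell 3' v3 kit. Per the submitters' processing notes Cell Ranger 3.1.0 and STAR were used, while the file headers name Cell Ranger 5.0.0. The sources used here name no genome build and do not say whether introns or strand were counted. The members and gene lists were chosen with earlier results of these data known.

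Nuclei were selected as the report states, without removing doublets, which were predicted with Scrublet in scanpy 1.11.5 at an expected rate that grows with the number of nuclei. Counts were summed per library and set and tested in R 4.3.3 with edgeR 4.0.16 (quasi-likelihood test, TMM factors, filterByExpr, Benjamini-Hochberg adjustment over all genes tested). The library was a block, since both sums of a pair come from the same library. The 12 rule genes, mitochondrial genes and, against the chosen pairs, all pair genes were not tested. CPM used all UMIs of a sum. Clusters came from 2000 variable genes, 30 components, 20 neighbours and leidenalg 0.10.2 at resolution 1. DESeq2 1.42.0 was an alternative. The scripts were tested on simulated data. Free RNA was not removed.

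Named genes were the 12 higher and 12 lower with the largest differences (5 and 5 in the other comparisons) at adjusted p under 0.05, at least 20 CPM on the higher side, 1 direction in 6 libraries and no clone, ribosomal or mitochondrial symbol. To these came the 3 smallest adjusted p of each of 18 lists and a set of hormone, peptide and reelin genes named whatever their values. Some genes that this rule names are not reported here.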

Additional observations from a re-analysis of the deposited data

Results flagged for a closer look

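Of 105 values tested over the 6 libraries, 5 had a highest or lowest library far from the others, and chance flags about 1 in 20. The share of predicted doublets among members was 27.8% in replicate 4 and 11.7 to 15.2% in the other libraries. Myo3b stood at 22.9 CPM in members of replicate 5 and at 13.5 to 16.3 CPM in the others. Calcrl stood at 13.0 CPM in members of replicate 4 against 4.18 to 7.20 CPM, Ramp1 at 11.4 CPM in replicate 4 against 4.43 to 6.54 CPM, and Htr7 was lowest in replicate 4 at 135 CPM against 155 to 164 CPM.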

How the results depend on the processing

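The share of members, 18.4%, became 39.5% with at least 3 rule genes, 7.72% with at least 5, 17.4% without predicted doublets and 7.80% in thinned nuclei, and ran from 18.3 to 18.6% without each replicate in turn. The richest cluster was 83.2% members and 73.5% at resolution 0.5. Against other gate nuclei 4124 genes were called, 2604 with DESeq2, 2565 in thinned nuclei and 2109 without nuclei holding glial UMIs. Between receptor-rich and receptor-poor members 256 were called, 150 with DESeq2, 561 with no filter on low counts and 154 to 304 without each replicate in turn. Against the Col25a1 and Tll1 nuclei 3158 became 1910 with DESeq2 and 1996 in thinned nuclei, and against the Ano2 and Ntf3 nuclei 4778 became 3122 and 2556. The cause was not tested.

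With no replicate block, that is without the library pairing, the 4 comparisons called 3177, 112, 2753 and 4361 genes, and the calls of Jak2, Dab1, Ghr, Drd3, Uty, Gzmk and Pax6 were lost.

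Of the genes named against other gate nuclei 8 changed sign somewhere, and of these only Dab1 was called in the report. Ramp1 ran from -0.07 to 0.18 without each replicate in turn (-0.07 without replicate 4, -0.00 without replicate 5) and was -0.30 without predicted doublets, -0.16 thinned, -0.13 depth-matched, -0.12 and -0.03 with at least 3 and 5 rule genes and -1.35 without nuclei holding glial UMIs. Dab1 was -0.02 depth-matched and -0.19 without nuclei holding glial UMIs, where it passed (adjusted p = 0.026), and Eif2s3y 0.01 thinned, 0.02 depth-matched and 0.05 without those nuclei. Kdm5d was -0.03 thinned and -0.03 with at least 3 rule genes, and Vldlr -0.04 there. Esr2 was -0.60 thinned and ran from -0.02 to 0.13 without each replicate. Oxtr was 0.30 against nuclei with at most 1 rule gene, 0.23 with at least 3, and ran from -0.36 to 0.01. Avpr1a was -0.10 with DESeq2, -0.53 with at least 5, and ran from -0.14 to 0.20.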

Other observations

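Y-linked genes were measured in every library. Over all barcodes Uty stood at 181 to 209 CPM, Ddx3y at 56.5 to 62.0, Kdm5d at 61.8 to 77.8 and Eif2s3y at 124 to 160.1 CPM, while Xist, the RNA of the inactive X chromosome, stood at 0.314 to 0.396 CPM. In members Uty ran from 181 to 212 CPM and Xist from 0 to 0.464 CPM.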
